A study of Mus musculus with 118 samples.

Results

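The 40 genes described here encode the proteins that store neurotransmitter in synaptic vesicles, dock the vesicles at the presynaptic membrane and fuse them with it. They were chosen by name, with earlier results of these data known, from the 23998 gene symbols of the count table. RNA was read from single SOM+ interneurons, the GABAergic cortical cells marked by the neuropeptide somatostatin (Sst), in L4 and L5 of V1 (primary visual cortex) and S1 (primary somatosensory cortex). The cells came from adult SOM-Cre/Ai9 mice and received no treatment. In these mice Cre, driven from the Sst gene, switches on the red protein tdTomato, and the mark stays in cells that expressed Sst at an earlier time. Every group carried this genotype. By Patch-seq, the content of each cell was drawn into the recording pipette and its RNA was turned into full-length cDNA without molecular identifiers.

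The labels placed 44 L4 and 19 L5 cells in V1, and 39 L4 and 16 L5 cells in S1. Cells with fewer than 1500 detected genes (4 cells), with more Slc17a7 than Gad1 plus Gad2 counts (1 cell) or without an Sst read (4 cells) were left out. The kept cells, 92.4% of those sequenced, were 42 L4 and 17 L5 cells of V1 and 34 L4 and 16 L5 cells of S1. No animal is named in the labels, so an area and layer counts as 1 sample. Differences between groups therefore had no replicate check, and no p-value or standard error was computed. The cells carry 9 dates in their labels. Each difference was computed again within every label date that held at least 2 cells of each group, and the SD over these dates is given as its spread. The study's methods give fewer mice for Patch-seq than there are label dates, so the dates are not all separate animals and the SD over dates is not a spread over animals.

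Counts are expressed as counts scaled to a total of 1000000 in each cell (CPM) or as log2(CPM + 1), and RPKM, which is also divided by gene length, was used wherever a level is compared between genes. The total count of a kept cell ranged from 97904 to 3295232. In V1 the log10 total was 6.05 ± 0.23 in L4 and 5.93 ± 0.39 in L5 (mean ± SD over cells), and in S1 it was 6.10 ± 0.21 and 6.01 ± 0.31. The GABAergic label was checked with genes that the choice of cells did not use. The vesicular GABA transporter Slc32a1 had reads in 92.7% of the kept cells, Pvalb in 36 cells and Vip in 3. Gad1, Gad2 and the glutamatergic marker Slc17a7 entered that choice and are no check. They had reads in all kept cells, in 98.2% and in 22 cells, and Slc17a7 reached 112.4 CPM.

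Genes of other cell types were read in part of the cells. The summed oligodendrocyte list (6 genes) reached 3717 CPM in the L4 cells of V1 (median 156, Mag at 0) and 9702 in those of S1 (median 644), and in L5 it reached 3870 in V1 (median 170.6, Mog at 0) and 5580 in S1 (median 322). In the same order of groups the astrocyte list (6 genes) had medians of 86.6, 224, 0 and 58.9 CPM and reached 7932, 2404, 1222 and 1350 CPM, with Gfap at 0 in S1 L4 and Aqp4, Gfap and Slc1a3 at 0 in V1 L5. The microglia list (6 genes) had medians of 83.0, 129.03, 10.9 and 15.3 CPM and reached 1345, 1190, 2764 and 725 CPM, with P2ry12 at 0 in S1 L5. The excitatory neuron list (8 genes) had medians of 1.99, 1.08, 0.541 and 27.02 CPM and reached 698, 140, 434 and 545 CPM, with Slc17a6 and Emx1 at 0 in S1 L4 and Slc17a6 and Neurod6 at 0 in V1 L5. Each of these lists ranged from 0 in every group, so the groups overlapped. The fast-spiking list (6 genes) had medians of 933, 1048, 419 and 920 CPM, with Tac1 at 0 in S1 L4, Tac1 and Itm2a at 0 in V1 L5 and Itm2a at 0 in S1 L5. The VIP list (4 genes) had a median of 0 in all 4 groups and reached 118.2 CPM. The SOM list (8 genes), by contrast, ranged from 1833 to 18320 CPM. The part of other cell types in the differences between groups was not tested.

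Fusion of a synaptic vesicle is driven by the SNARE proteins, of which synaptobrevin sits on the vesicle and syntaxin and SNAP-25 on the plasma membrane. Synaptotagmins sense the calcium that enters with an action potential, complexins hold and then aid the partly zipped SNARE complex, and Munc13 and RIM proteins prime vesicles at the active zone. The ATPase NSF and its adaptor proteins take the used complexes apart. SOM+ cells form inhibitory synapses, mostly onto dendrites, and release GABA with this machinery.

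Most of the machinery was read in most cells. A kept cell had reads of 28.2 ± 3.70 of the 40 members (mean ± SD over cells, range 15 to 35). The means of L4 and L5 were 27.93 and 27.94 in V1 and 28 and 29.4 in S1, which differed by less than the SD over the cells of any group. Snap25, Syt1, Sv2a and Syp had reads in all kept cells, 18 members in at least 90% of them, 16 members in 20% to under 90%, and 6 members in under 20%. The 35 members with at least 32 counts in at least 10 kept cells passed the filter on low counts. The median of these members was detected in 90.8% of cells, beside 57.8% for the 9993 genes that passed the same filter. The 5 members that did not pass were Syt2, Syt10, Cplx3, Sv2b and Doc2b.

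**Figure D1:**
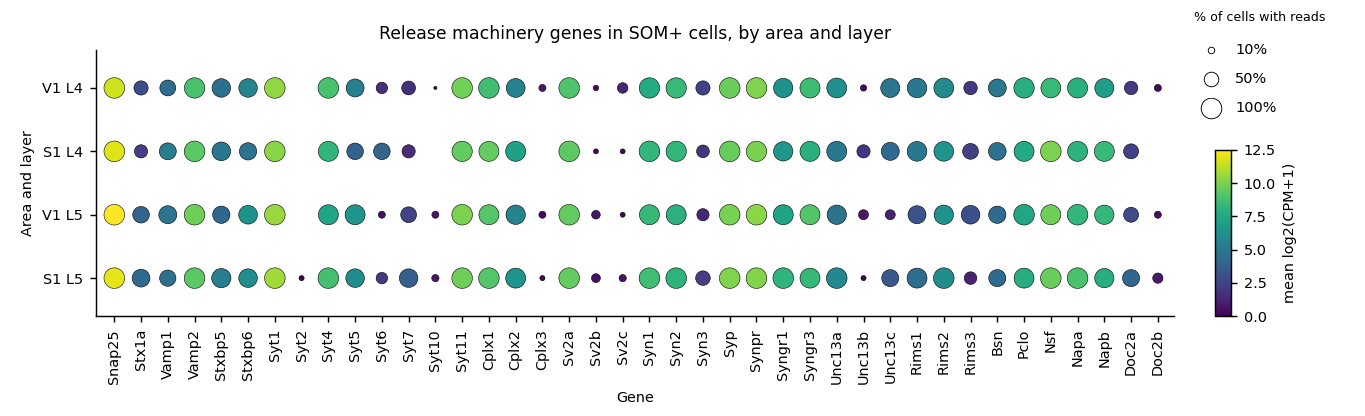
Level of the 40 members (x axis) in the kept cells of each area and layer (y axis): colour is mean log2(CPM+1) and circle area the percentage of cells with at least 1 count, with no circle where no cell had a count. Snap25, Syt1, Sv2a and Syp had reads in every cell of all 4 groups, and Syt2 had a read in 1 cell, in S1 L5.

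Among the SNAREs, Snap25 was the most abundant member of the whole list per length, at a mean of 2285 RPKM. Its level ranged from 446 to 10877 CPM over cells with a median of 4794, or 11.87 ± 1.08 on the log2 scale (mean ± SD over all kept cells). Vamp2, the main vesicle SNARE of forebrain synapses, had 351 RPKM and reads in 99.1% of cells, with a median of 762 CPM. Its homologue Vamp1 was read in 71 cells, at 61.6 RPKM. The plasma membrane SNARE Stx1a was read in 57 cells at a mean of 22.9 RPKM, far under its partner Snap25. It was read in 20 of 42 L4 and 11 of 17 L5 cells of V1 and in 14 of 34 L4 and 12 of 16 L5 cells of S1, so each group held cells with and without a count. The syntaxin binders Stxbp5 (tomosyn) and Stxbp6 (amisyn) had mean levels of 10.7 and 44.01 RPKM and were read in 88 and 85 cells.

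Among the calcium sensors, Syt1, the fast sensor of most forebrain synapses, had the steadiest level. It ranged from 102.7 to 4193 CPM with a median of 1524, or 10.45 ± 0.77 on the log2 scale, the smallest SD of the members that passed the filter. Syt2, which serves as the fast sensor at synapses of many fast-spiking interneurons, gave 1 count in 1 S1 L5 cell, a share of 0.917% of cells (95% Clopper-Pearson interval 0.0232% to 5.01%). No V1 L4, S1 L4 or V1 L5 cell had a Syt2 count. Intervals in this text cover counting error alone. Syt11 and Syt4, which lack calcium binding at their first C2 domain, were read in 99.1% and 97.2% of cells, at 235 and 137.2 RPKM. Syt5 was read in 83 cells, Syt7, a slow and high-affinity sensor, in 56, Syt6 in 42 and Syt10 in 5. Doc2a and Doc2b, high-affinity sensors with paired C2 domains, were read in 56 and 11 cells.

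The complexins and vesicle proteins were dominated by a few genes. Cplx1 had a mean of 495 RPKM and a median of 873 CPM, Cplx2 had 40.8 RPKM, and Cplx3 was read in 8 cells, none of them in S1 L4 (0 of 34, upper bound 10.3%). Synpr, or synaptoporin, a tetraspan vesicle protein, was second to Snap25 on the per-length scale, with 623 RPKM. Its relatives Syp (421 RPKM), Syngr3 (288 RPKM) and Syngr1 (73.0 RPKM) followed. Sv2a, a vesicle glycoprotein, was at 205 RPKM, whereas Sv2c was read in 16 cells and Sv2b in 11. The synapsins, which tether vesicles to each other, were at 174.5 RPKM (Syn2), 134.6 RPKM (Syn1) and 3.85 RPKM (Syn3).

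The priming and active zone genes were read at lower levels per length. Unc13a, which encodes Munc13-1, the main priming factor of the forebrain, was at 14.2 RPKM in 93.6% of cells. Unc13c (Munc13-3) was at 11.4 RPKM in 77 cells and Unc13b (Munc13-2) at 1.58 RPKM in 23 cells. The scaffolds Rims1, Rims2 and Pclo were at 32.5, 24.3 and 20.97 RPKM, Bsn at 6.76 RPKM, and Rims3, a short RIM protein, at 16.5 RPKM in 58 cells. The Rims1 value is the sum of 2 entries of that symbol. The recycling genes were high again, with Nsf at 305 RPKM, Napa (alpha-SNAP) at 189 RPKM and Napb (beta-SNAP) at 166.2 RPKM. In the order of mean RPKM, Syp, Vamp2, Syt1 and Nsf followed Snap25, Synpr and Cplx1.

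Letters upstream of the start sites of members are shown for 3 genes: Syt2, the member nearly without reads, and Cplx1 and Nsf, which were high and varied together (Pearson r 0.46, Spearman rho 0.74 over all kept cells). Both also varied with the log10 total count (r = 0.57 for Cplx1 and 0.49 for Nsf), and the part of depth in their co-variation was not tested. Each line gives the 150 bases before a start site of the RefSeq annotation of GRCm38.p6, 5′ to 3′ on the strand of the gene, and capitals mark the letters GGGCGG (the GC box) or CCGCCC, its reverse complement. Syt2 lies on chr1:134646462-134646611 (+ strand), Cplx1 on chr5:108550028-108550177 (− strand) and Nsf on chr11:103954057-103954206 (− strand).
Syt2: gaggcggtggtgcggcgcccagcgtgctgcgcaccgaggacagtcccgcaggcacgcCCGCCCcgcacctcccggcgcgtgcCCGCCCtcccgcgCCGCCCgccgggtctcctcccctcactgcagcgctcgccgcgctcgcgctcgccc
Cplx1: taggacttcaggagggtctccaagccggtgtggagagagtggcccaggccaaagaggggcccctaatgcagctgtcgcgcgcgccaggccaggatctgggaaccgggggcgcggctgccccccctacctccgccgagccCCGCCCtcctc
Nsf: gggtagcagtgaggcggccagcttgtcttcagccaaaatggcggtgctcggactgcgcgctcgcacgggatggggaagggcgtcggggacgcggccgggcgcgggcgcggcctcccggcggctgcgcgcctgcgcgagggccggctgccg

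All 3 stretches were rich in G and C, at 82% in Syt2, 71.3% in Cplx1 and 77.3% in Nsf. The GC box letters occurred 3 times in Syt2, once in Cplx1 and not in Nsf. For 30 of the 40 members the table held 39 promoter windows, and 25 of these windows (64.1%) had the GC box on either strand within 250 bases before the start. The share was 32.7% of all 32851 windows and 58.8% of the 9972 windows of genes that passed the filter, so the member windows were near those of other genes read in these cells. CCAAT (or ATTGG) was found in 10 member windows (25.6%), beside 33.8% of all windows and 34.7% of those of genes past the filter. TATAAA (or TTTATA) was found in 2 (5.13%, beside 12.4% and 5.80%). TGACGTCA, the cAMP response element, was found in 1, that of Syn1 (2.56%, beside 1.55% and 2.84%). The motifs do not overlap in their letters.

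In the Vamp, complexin, Sv2 and Doc2 families 1 member held most of the RPKM of a cell. Vamp2 held 87.1% ± 16.7 of the sum of Vamp1 and Vamp2 (mean ± SD over cells) and was the higher of them in 96.3% of cells. Cplx1 held 87.6% ± 19.5 of the complexins and led in 95.4% of the cells with a complexin read. Sv2a held 97.7% ± 10.05 of the Sv2 family and led in 99.1% of cells, with Sv2c ahead in the remaining cell, of V1 L4. Doc2a held 91.1% ± 26.8 of the Doc2 pair over the 60 cells with a read of either gene.

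The synaptotagmins were shared among several genes. Syt1 held 41.9% ± 12.4 of the 8 synaptotagmins and led in 78 cells, Syt11 held 28.6% ± 11.02 and led in 17, Syt4 held 17.4% ± 12.1 and led in 10, and Syt5 held 8.91% ± 10.2 and led in 4. Reads of 4 or 5 different synaptotagmins were found in 35 and 48 cells, and no cell had fewer than 3 or all 8. Syt6, Syt7, Syt10 and Syt2 led in no cell. Synpr held 41.5% ± 16.7 of the tetraspan genes and led in 74 cells, and Syp led in 23.

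The lead was divided in the synapsin, RIM, Nap and syntaxin-binder genes. Syn2 held 49.96% ± 26.5 and Syn1 48.4% ± 26.5 of the synapsins, and they led in 56 and 52 cells. Syn2 led in 28 of 42 V1 L4 and 18 of 34 S1 L4 cells, but in 5 of 17 V1 L5 and 5 of 16 S1 L5 cells. By RPKM, Rims1 led in 49 and Rims2 in 45 cells. The Rims1 RPKM adds up 2 entries of that symbol, each already scaled by length. How far the lead and the shares of Rims1 rest on this sum was not tested. Without scaling by length, the mean log2(CPM + 1) was 4.66 for Rims1 and 6.19 for Rims2. Rims1 held 46.3% ± 33.2 of the Rims sum in V1 L4, 43.4% ± 29.8 in S1 L4 and 46.4% ± 34.6 in S1 L5, but 20.7% ± 28.3 in V1 L5. Napa held 56.9% ± 27.3 and Napb 43.1% ± 27.3 of their pair. Stxbp6 held 66.1% ± 38.7 of its pair and was higher than Stxbp5 in 70.3% of the cells with a read of either, a pair that shares a target, syntaxin, rather than a close sequence.

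The Munc13 genes changed places between cells. Unc13a held 62.9% ± 36.4 of the Unc13 sum and led in 61.9% of the cells with an Unc13 read, Unc13c held 31.9% ± 35.4 and led in 35 cells, and Unc13b led in 5, of which 4 were in S1 L4. In V1 the Unc13a share was 62.0% ± 33.6 in L4 and 81.2% ± 31.7 in L5, and in S1 it was 52.1% ± 39.7 and 70.2% ± 34.7. The Unc13c share was 13.995% ± 31.4 in V1 L5 and 29.5% ± 34.5 to 37.2% ± 39.02 in the other groups. All of these group means lay within the SD over cells of each other.

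**Figure D2:**
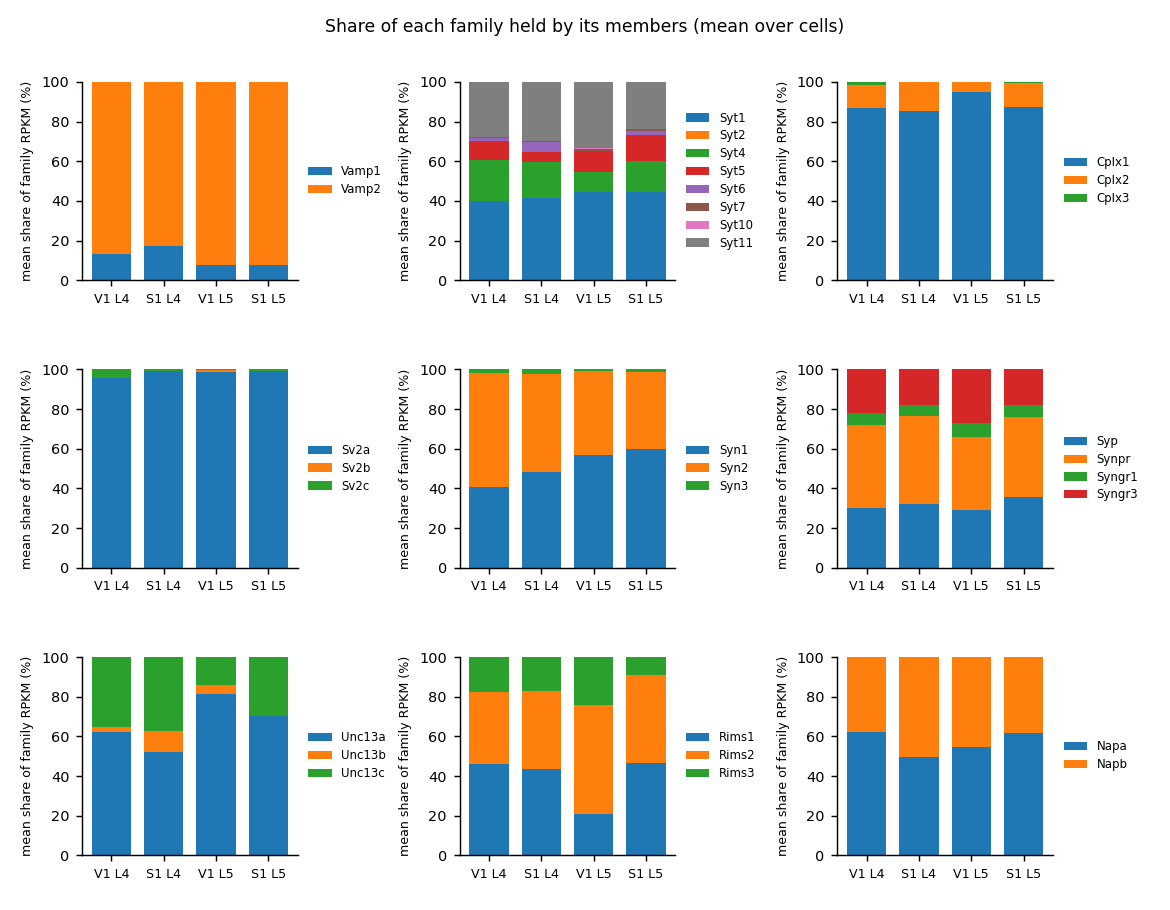
Mean share (%) of the summed RPKM of a family held by each member, over the kept cells with a read of the family, by area and layer. Vamp2, Cplx1 and Sv2a fill most of their bars in all 4 groups, and the Rims1 part is smallest in V1 L5, at 20.7%.

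The difference between areas in L4 addresses how SOM+ cells of the same layer differ between V1 and S1. Of the 35 members that passed the filter, 5 were at least 1 log2 unit (2-fold) higher in S1, as were 7.64% of all 9993 genes, and 3 were at least 1 unit lower, as were 7.29%. These 8 members are 22.9% of the 35. With the same sign in every label date required too, 3 members remained (8.57%), Syt6, Syt5 and Unc13a, beside 3.01% of all genes. Whether the shares of members and of all genes differ was not tested. The median difference was −0.04 over the members and 0.01 over all genes.

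Syt6 (chr3:103575231-103645569 on GRCm38), a calcium-binding synaptotagmin related to Syt3 and Syt10, had the largest difference of the members in L4. In V1 L4 it reached 477 CPM (lowest 0, median 0), and in S1 L4 it reached 673 CPM (lowest 0, median 16.8). Reads were found in 13 of 42 V1 L4 cells (30.95%, interval 17.6% to 47.1%) and 22 of 34 S1 L4 cells (64.7%, interval 46.5% to 80.3%), and after thinning to 250000 counts a cell in 11 of 42 and 19 of 34. Both areas thus held cells without a read, and they overlapped. The mean log2 level was 1.69 ± 2.90 in V1 and 3.99 ± 3.57 in S1, a difference of 2.30. Within label dates the difference was 2.95, 3.31, 3.53, 1.85 and 1.88, a mean of 2.70 ± 0.79 (SD over 5 dates), higher in S1 in 5 of 5. With the 4 cells without Sst reads kept, it was 1.88.

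Unc13a (chr8:71624417-71671757) was lower in S1 L4. It ranged from 0 to 874 CPM with a median of 124.9 in V1 L4 and from 0 to 242 CPM with a median of 47.5 in S1 L4, so every S1 cell lay within the range of V1. The difference was −1.15, and within dates it was −2.31, −0.69, −0.88, −2.04 and −2.65 (mean −1.71 ± 0.88). It was −0.84 without label date 2 and −0.82 without label date 7. Syt5 (chr7:4539765-4547541), a calcium sensor also found on dense-core vesicles, ranged from 0 to 1801 CPM (median 82.8) in V1 and from 0 to 442 CPM (median 27.97) in S1, a difference of −1.45. Its differences within dates ran from −0.13 to −5.51 (mean −1.95 ± 2.15), and the difference was −0.92 without label date 2 and −0.99 without label date 9. The groups overlapped for both genes.

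The other members at or past 1 unit in L4 did not keep their sign in every date. Nsf (1.63), Cplx2 (1.65), Unc13b (1.62) and Napb (1.42) were higher in S1, Nsf, Unc13b and Napb in 4 of 5 dates and Cplx2 in 3 of 5, and Sv2c (−1.06) was lower in 4 of 5. Unc13b was read in 4 of 42 V1 L4 and 14 of 34 S1 L4 cells, and Sv2c in 11 of 42 and 2 of 34. The SNAREs were under 1 unit, with Snap25 at 0.32, Vamp2 at 0.41, Vamp1 at 0.81 and Stx1a at −0.61 between areas. The calcium sensor Syt1 was at −0.12 and the tetraspan protein gene Syp at −0.04. S1 L4 cells had the higher oligodendrocyte list (medians 644 and 156 CPM) and more cells with a Pvalb read (18 of 34 beside 10 of 42). Over all kept cells, Syt6 had r = 0.22 with the log10 total count and 0.09 with Pvalb, while Nsf and Napb had 0.49 and 0.51 with the total. The part of depth and of other cells in these differences was not tested.

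In L5 the same question was asked of fewer cells, 17 in V1 and 16 in S1. Here 8 members were at least 1 unit higher in S1, where 21.6% of all genes were, and 1 was lower, where 8.96% were. Past both rules were 3 members (8.57%), beside 11.1% of all genes, so the members' share was near the background. The median difference was 0.12 over the members and 0.22 over all genes.

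Rims3 (chr4:120854816-120896579) was lower in S1 L5 and Syt7 (chr19:10389090-10453180) was higher. Rims3 was read in 14 of 17 V1 cells (range 0 to 104.9 CPM, median 4.99) and in 6 of 16 S1 cells (range 0 to 35.6 CPM, median 0), which overlapped. The difference was −1.86, and it was −1.88, −0.99, −1.45 and −3.47 within dates (mean −1.95 ± 1.08, lower in 4 of 4). Thinned to 250000 counts a cell, Rims3 was read in 12 of 15 V1 and 3 of 15 S1 cells. Syt7 ranged from 0 to 107.4 CPM (median 3.22) in V1 L5 and from 0 to 255 CPM (median 16.4) in S1 L5. Its difference of 1.27 was positive in 4 of 4 dates (1.70, 1.32, 0.26 and 2.45), and it was 0.85 without label date 6. The groups overlapped.

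Stxbp5 (chr10:9755547-9901079), an inhibitor of SNARE assembly, was 1.14 higher in S1 L5 (medians 58.9 and 13.9 CPM, ranges 0 to 420 and 0 to 531), and the difference was 0.25 without label date 3. Unc13c differed by 2.20, in 3 of 4 dates, with reads in 4 of 17 V1 and 11 of 16 S1 cells. Syt6 differed by 1.65, the same direction as in L4, but by 0.44 without label date 4. Syt4 (1.39), Unc13a (1.14), Rims1 (1.24) and Doc2a (1.31) were higher in 3 of 4 dates. Syt4, Unc13a and Doc2a were at 0.81, 0.29 and 0.70 without label date 3, and Rims1 at 0.83 without label date 5. For Unc13a the difference between areas was −1.15 in L4 and 1.14 in L5, and whether these differ was not tested. Other values moved with area in L5. The excitatory list was higher in S1 (medians 27.02 and 0.541 CPM), as was the fast-spiking list (920 and 419 CPM). Reads of Pvalb were found in 7 of the 16 S1 cells but 1 of the 17 V1 cells. The detected genes of a cell were 6952 ± 1624 in S1 and 6272 ± 1799 in V1 (mean ± SD), which differ by less than the SD. Over all kept cells Syt7 had r = 0.23 with the excitatory list and −0.08 with Pvalb. The part of these in the differences was not tested.

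**Figure D3:**
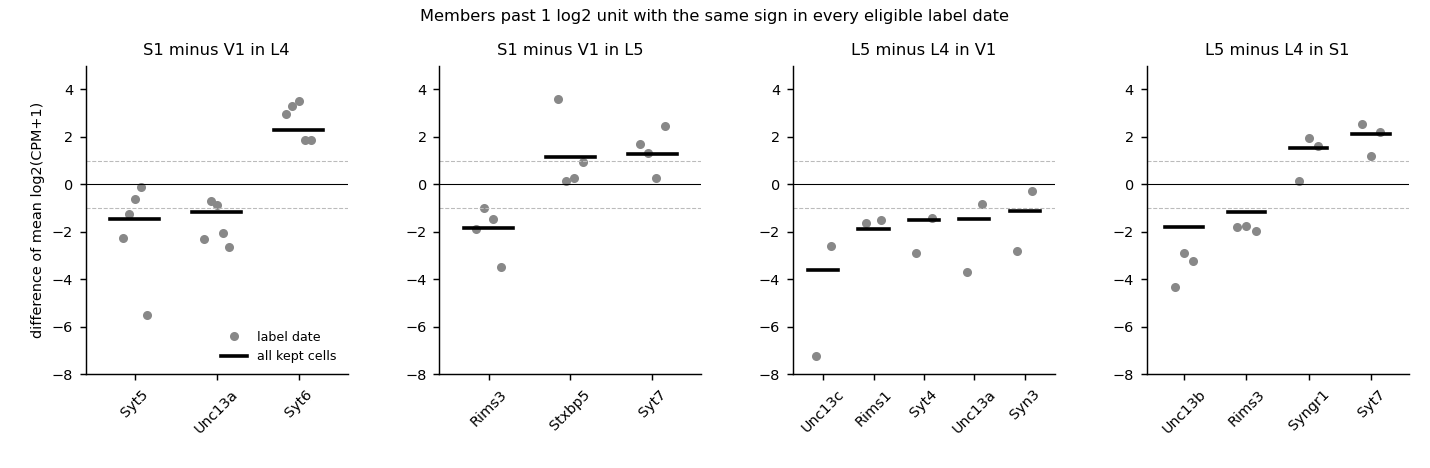
Differences of mean log2(CPM+1) (y axis) for the members past 1 log2 unit with the same sign in every eligible label date, in 4 comparisons: black bars are all kept cells, grey points single label dates and dashed lines 1 unit. Syt6 in L4 has all 5 dates between 1.85 and 3.53, and Unc13c in V1 has its 2 dates at −7.21 and −2.59.

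Layers were compared within each area. These comparisons use the same cells as those between areas, so the values are not separate evidence. In V1, 5 members were at least 1 unit higher in L5, as were 16.1% of all genes, and 7 were lower, as were 14.4%. Past both rules were 5 members (14.3%), beside 14.8% of all genes, a share near the background. Only 2 label dates held at least 2 cells of both layers in V1. The median difference was 0.42 over the members and 0.02 over all genes.

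The 5 members, Unc13c, Rims1, Unc13a, Syt4 and Syn3, were all lower in V1 L5. The other Munc13 and RIM genes had positive differences over all cells, with Unc13b at 0.50, Rims2 at 0.44 and Rims3 at 1.03. Unc13c (chr9:73479422-73968966) had the largest difference of any member in the 4 comparisons. It ranged from 0 to 992 CPM in V1 L4 (median 30.6, reads in 36 of 42 cells) and from 0 to 151.6 CPM in V1 L5 (median 0, reads in 4 of 17 cells). After thinning, reads were found in 36 of 42 and 3 of 15 cells. The difference was −3.61, and −7.21 and −2.59 within the 2 dates. In S1, Unc13c was read in 26 of 34 L4 and 11 of 16 L5 cells, and the difference between layers was −0.73. Whether the layer differences of V1 and S1 differ was not tested.

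Rims1 (chr1:22286251-22805994), an active zone scaffold that ties vesicles to calcium channels, ranged from 0 to 240 CPM (median 49.8) in V1 L4 and from 0 to 114.96 CPM (median 9.68) in V1 L5. Its difference was −1.88, and −1.63 and −1.51 within dates. Unc13a ranged from 0 to 874 CPM (median 124.9) in V1 L4 and from 0 to 322 CPM (median 48.3) in V1 L5, a difference of −1.44 that was −0.66 without label date 3. Syt4 (medians 559 and 216 CPM) differed by −1.48 and by −0.92 without label date 3. Syn3 (medians 0 and 0 CPM, reads in 20 of 42 and 6 of 17 cells) differed by −1.12 and by −0.80 to −0.98 without label date 3, 6 or 8. The groups overlapped for all 4 genes. Depth was lower in V1 L5 (mean log10 total 5.93) than in V1 L4 (6.05). Of the other members at or past 1 unit, Stx1a (1.11), Syt5 (1.18), Nsf (1.34) and Napb (1.31) had 1 date of each sign, Syt6 (−1.16) had no reads in either date, Sv2c (−1.10) was lower in 1 of 2, and Rims3 was 1.03 higher over all cells but lower in both dates.

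In S1, 6 members were at least 1 unit higher in L5, as were 19.3% of all genes, and 3 were lower, as were 7.4%. Past both rules were 4 members (11.4%), beside 11.3% of all genes. The median difference was 0.25 over the members and 0.25 over all genes. Syt7 was higher in L5, with a range of 0 to 127.3 CPM (median 0) in S1 L4 and 0 to 255 CPM (median 16.4) in S1 L5, and reads in 14 of 34 and 13 of 16 cells. Its difference of 2.11 was 2.54, 1.18 and 2.21 within dates. Syngr1 (chr15:80091334-80119501), a vesicle tetraspan protein, was higher by 1.52 (0.15, 1.93 and 1.62 within dates). It ranged from 0 to 656 CPM in S1 L4, where some cells had no read. In S1 L5 it ranged from 128.2 to 596 CPM, and all 16 cells had reads. The medians were 230 and 278 CPM, closer on the log2 scale than the means of 6.63 and 8.15. The part of the cells without a Syngr1 read in this difference was not tested.

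Unc13b and Rims3 were lower in S1 L5. Unc13b (chr4:43058953-43264871) was read in 14 of 34 S1 L4 cells (range 0 to 288 CPM) and in 1 of 16 S1 L5 cells (3.95 CPM), a difference of −1.81, with −4.32, −2.89 and −3.23 within dates. Rims3 was read in 20 of 34 and 6 of 16 cells (maxima 101.6 and 35.6 CPM), a difference of −1.15 with −1.79, −1.76 and −1.96 within dates, and −0.91 or −0.95 without label date 6 or 8. With the cells without Sst reads kept it was −0.99, and of the 15 differences past both rules in the 4 comparisons it was the 1 that fell under 1 unit with them. All 4 genes had overlapping groups. Stx1a (1.95), Stxbp6 (1.51) and Doc2a (1.70) were higher in 2 of 3 dates, Syt5 (2.25) in 1 of 3, and Syt6 (−1.82) was lower in 2 of 3. The mean of Syt6 was 3.99 in S1 L4, 2.17 in S1 L5, 1.69 in V1 L4 and 0.53 in V1 L5, and each neighbour in this order differed by less than the SD over cells of either group. The order of layers did not hold throughout: L5 minus L4 was −3.31, 2.54 and −2.28 within dates in S1, and 0.53 in V1 over the 4 dates with both layers.

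**Figure D4:**
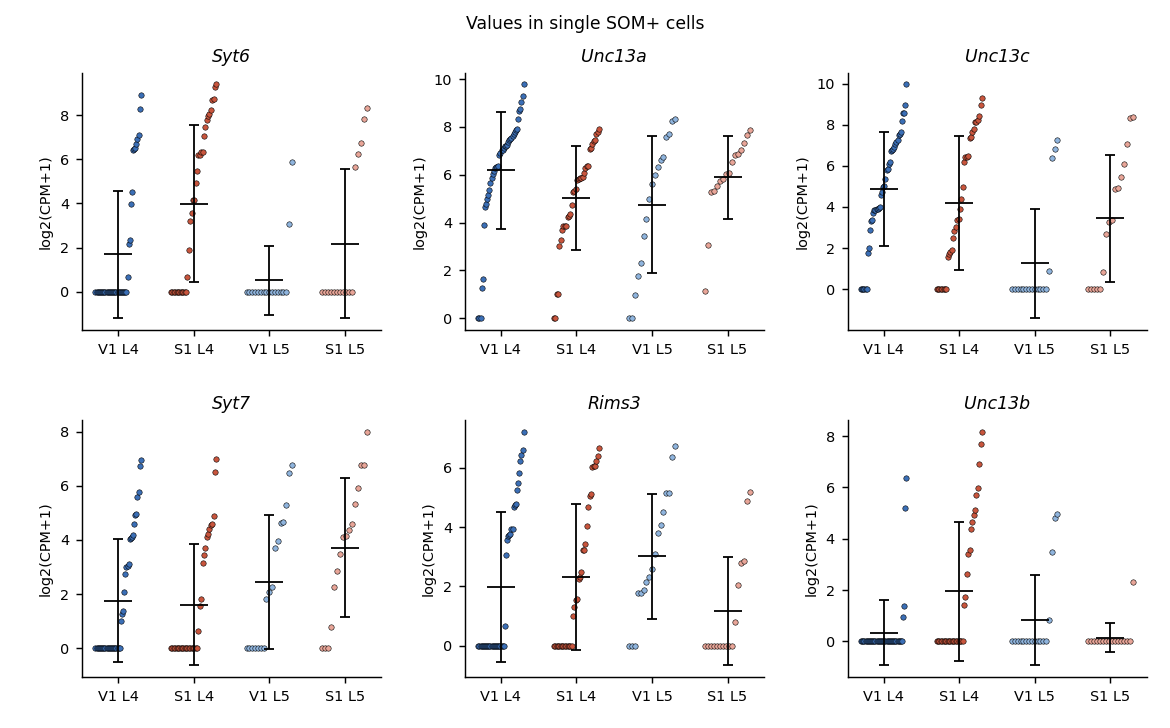
Log2(CPM+1) (y axis) of Syt6, Unc13a, Unc13c, Syt7, Rims3 and Unc13b in every kept cell, by area and layer and sorted within a group, with mean and SD over cells as black bars. Cells at 0 are found beside cells with high values in nearly every group, and Unc13c has reads in 4 of the 17 V1 L5 cells.

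The 4 comparisons gave 15 differences of members past both rules, and 7 of them stayed at or past 1 unit whichever label date was left out: Syt6 between areas in L4, Rims3 between areas in L5, Unc13c and Rims1 between layers in V1, and Syt7, Syngr1 and Unc13b between layers in S1. With a pseudocount of 10, which gives low values less weight, 6 of the 15 stayed at or past 1 unit: Syt6 in L4 (1.27), Syt4, Unc13a, Unc13c and Rims1 in V1 (−1.28, −1.003, −1.74 and −1.13) and Syngr1 in S1 (1.07). In cells with at least 4000 detected genes, Syt5 (−0.85) and Unc13a (−0.89) between areas in L4, Stxbp5 (0.94) in L5 and Syt4 (−0.83) in V1 were under 1 unit. On the deposited RPKM values Unc13a between areas in L4 was at −0.997, just under 1 unit, and Stxbp5 (0.50), Syt7 (0.73) in L5 and Syn3 (−0.77) in V1 were under it too.

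Other genes of the release pathway were counted for comparison, a list of 47 genes of which 37 passed the filter. In L4, 2 of the 37 were at least 1 unit higher and 1 lower in S1, beside 7.64% and 7.29% of all genes. None kept its sign in every date as well, beside 3.01% of all genes and the 3 members. In L5, 6 were higher and 4 lower in S1, beside 21.6% and 8.96% of all genes. Past both rules were 6 (16.2%), beside 11.1% of all genes. The largest were Cadps (1.97), a priming factor of dense-core vesicles, Ppfia4 (1.90), a liprin of the active zone, and Vamp3 (1.53), a SNARE of endosomes. In V1, 7 were higher and 4 lower in L5, beside 16.1% and 14.4% of all genes. Past both rules were 6 (16.2%), near the 14.8% of all genes, led by Syt13 (2.06), the endophilin Sh3gl2 (1.89) and Sncb (1.60). In S1, 3 were higher in L5 and none lower, beside 19.3% and 7.4% of all genes. Only Rab3c (2.53), a vesicle GTPase, passed both rules (2.70%, beside 11.3% of all genes). Whether any of these shares differ from those of all genes was not tested.

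Over cells, some members varied together. For the 34 members with reads in at least 20% of the kept cells, Pearson r of log2(CPM + 1) over all kept cells had a median of 0.11 over 561 pairs. It was above 0.5 in 14 pairs and below −0.2 in 12. Pairs of all genes were not counted in this way, so these counts are not read as particular to the members. Snap25 or Vamp2 was in 9 of the 14 pairs. Snap25 with Vamp2 had r = 0.69 (rho 0.84), Vamp2 with Nsf 0.62 (rho 0.69) and Snap25 with Napb 0.58 (rho 0.71). The other 3 of the 6 highest pairs were of vesicle proteins, with Vamp2 and Syp at 0.59 (rho 0.32), Syt11 and Syp at 0.59 (rho 0.43) and Syt11 and Synpr at 0.57 (rho 0.36). Centred within group and label date, these 6 values were 0.58 to 0.68.

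The lowest values were smaller in size. Snap25 and Unc13c had r = −0.32 (−0.23 after centring), Syt5 and Syt6 −0.30 (−0.11 after centring), Pclo and Napb −0.26 and Syt7 and Cplx1 −0.25. All points share a depth and a total: r with the log10 total count was 0.57 for Cplx1, 0.52 for Snap25, 0.51 for Vamp1 and Napb, 0.49 for Nsf and 0.48 for Vamp2, and 0.09 for Syt1. With the line on the log10 total removed, the 6 highest pairs had r from 0.42 (Snap25 and Napb) to 0.59 (Snap25 with Vamp2 and Syt11 with Syp), and the median over pairs was 0.06. Thinned to equal counts, Snap25 and Vamp2 had r = 0.68.

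**Figure D5:**
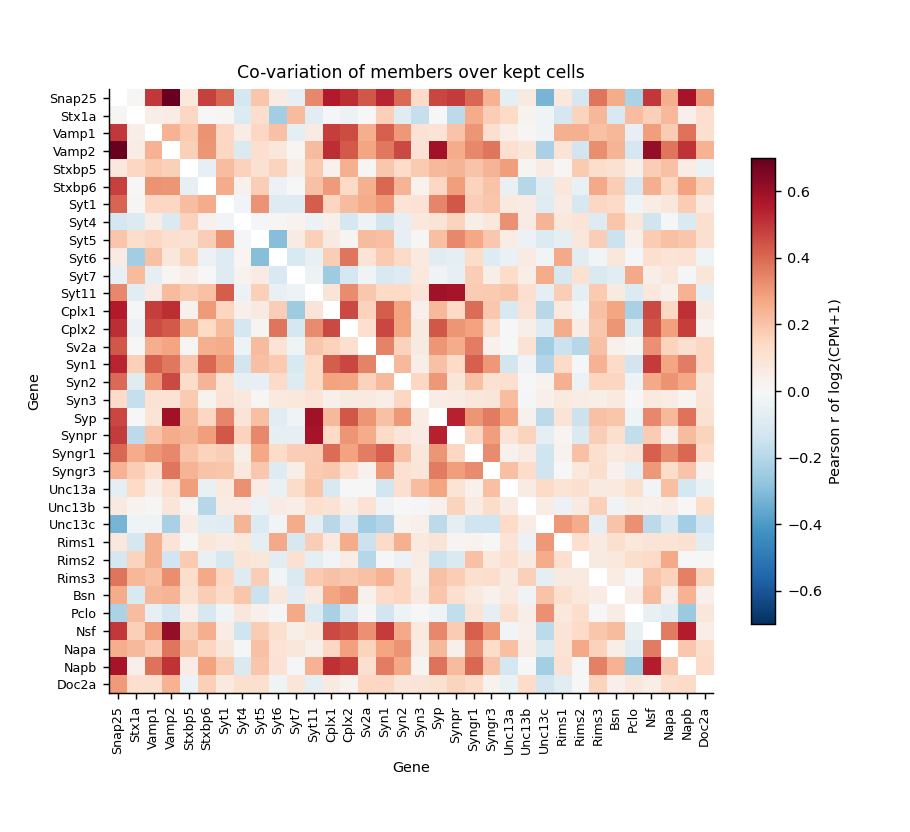
Pearson r of log2(CPM+1) over the kept cells between the 34 members with reads in at least 20% of cells (both axes), from blue (−0.7) to red (0.7), with the diagonal left blank. The darkest red cells join Snap25, Vamp2, Nsf and Napb, and Syp, Syt11 and Synpr, and the darkest blue cell is Snap25 with Unc13c, at −0.32.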

How the data were processed

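The authors prepared Smart-seq2-based libraries from single patched cells, aligned the reads to mm10 with STAR (2.4.2a in the submitters' processing notes, beside bcl2fastq 2.20) and deposited whole read counts per gene, without normalization. The authors also deposited RPKM values, which are scaled by depth and by the length of the gene model. Entries that share a symbol were summed, in the counts and in RPKM, among them 2 entries of Rims1, so 24490 entries gave 23998 symbols. Every deposited column matched 1 labelled cell, and its area, layer and date came from the labels.

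A cell was kept if it had an Sst count, detected at least 1500 genes and did not have more counts of Slc17a7 than of Gad1 and Gad2 together. Counts were analysed as log2(CPM + 1), so the pseudocount is 1, and 9993 genes had at least 32 counts in at least 10 kept cells. A member counts as past 1 unit when the difference of group means is at least 1 in size, and a second rule asks for the same sign in every label date with at least 2 cells of each group. No test was run, since each area and layer is 1 sample. The total counts set the precision of each cell: a member at 0 had no count, and an expected count of up to about 3 can still give 0. Shares have 95% Clopper-Pearson intervals, and thinning drew 250000 counts from each cell (seed 1). Families are compared on RPKM. Members described in full are those past both rules in a comparison and the leading gene of each family, and of the other release genes up to 3 past both rules are named per comparison. Syt1 and Syt6, for example, enter by these rules. Members and lists were chosen with earlier results of these data known.

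The functions were tested on simulated data. Coordinates are from GENCODE M21 (GRCm38), and promoter windows from RefSeq (GRCm38.p6). TMM scaling used edgeR 4.0.16 in R 4.3.3. Other steps used SciPy 1.17.1, pandas 2.3.3 and NumPy 2.4.6 in Python 3.11.15, and matplotlib 3.10.9 for the plots. Alternatives changed the scaling, pseudocount, unit, depth, filters and label dates. The electrical recordings and the morphology were not analysed here.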

Additional observations from a re-analysis of the deposited data

Results flagged for a closer look

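Values outside the kept cells stood out for 2 members. Syt2, which gave 1 count in the kept cells, had 374 counts (129.4 CPM) and 11 counts (9.19 CPM) in 2 of the 4 S1 L4 cells that were left out because they had no Sst read, and 0 in the other two. In the cell with 374 Syt2 counts, Cplx1 was at 3906 CPM, Vamp1 at 863 and Synpr at 0.346. The cell with 11 Syt2 counts had 1386 CPM of Cplx1, 885 of Vamp1 and 0 of Synpr. One of the cells with 0 Syt2 counts had 3716, 357 and 0 CPM of these genes. The other had 811, 0 and 915. Kept cells had medians of 873, 100.5 and 1454 CPM, and 33 of them reached 1386 CPM of Cplx1. Pvalb was at 921, 502, 758 and 94.4 CPM in these 4 cells in turn, beside at most 257 in a kept cell. The paper reports fast-spiking cells without SOM reads that mapped to a Pvalb type, which were not matched to the cells here. In a kept cell Syt2 reached at most 0.659 CPM. Sv2b had 498 counts (655 CPM) in the V1 L5 cell that was left out as glutamatergic, where the highest kept cell had 188 CPM. In that cell Cplx1 had 0 counts and Cplx2 had 240. These are single cells, and the values were flagged because they come from cells that no comparison used.

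For 3 members the differences within label dates had 1 sign in every date of a comparison and the opposite sign in every date of its counterpart. Snap25 was higher in S1 than in V1 in L4 (mean within dates 0.36) and lower in L5 (−0.55). Unc13b was higher in L5 than in L4 in V1 (1.21) and lower in S1 (−3.48). The V1 value rests on few cells: in its 2 dates all L4 cells were at 0, as were most L5 cells. In label date 3 only the L5 cell at 4.81 log2 units had Unc13b reads. Over all kept V1 cells the Unc13b difference was 0.50. Pclo was lower in L5 in V1 (−0.89) and higher in S1 (0.49). Over all kept cells the differences of Snap25 (0.32 in L4 and −0.45 in L5) and Pclo (−0.37 in V1 and 0.25 in S1) were under 1 unit. How many of all genes have such opposite signs was not counted, so the 3 members are not read as more than the background. Whether the paired differences differ was not tested, and V1 had 2 label dates with at least 2 cells of both layers.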

How the results depend on the processing

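The number of members at or past 1 log2 unit between areas in L4 was 8, and it was 4 with a pseudocount of 10 and 5 on deposited RPKM. In L5 it was 9, and 1 with a pseudocount of 10. Between layers in V1 it was 12, with 6 at a pseudocount of 10 and 19 after thinning to 250000 counts. Leaving out 1 label date gave 7 (without label date 7) to 17 (without label date 5). Between layers in S1 it was 9, and 3 with a pseudocount of 10. A larger pseudocount lowers every difference of low values by construction, and the cause of the other changes was not tested. The share of all genes past 1 unit was not computed under these alternatives. The changed counts are therefore not read as particular to the members. In V1, where most L4 cells carry other dates than the L5 cells, the layer differences turned over for 6 members. As the mean within label dates, Stx1a was at −0.57, Syt5 at −0.62, Rims3 at −0.62 and Nsf at −0.93, and in the 4 dates with both layers (7 L4 and 17 L5 cells) Syt6 was at 0.53, Nsf at −0.25 and Napb at −0.095. Of 601 values of 38 member differences under the alternatives, 541 lay within 1 SD over dates of the reported value. A further 53 lay at or beyond it with the same sign, and 7 had the opposite sign. These counts do not measure stability. The alternative without a filter on genes leaves every difference unchanged by construction. The SD was wider than some differences (Syt5 between areas in L4, −1.45 and SD 2.15). It was 0 for Syt6 between layers in V1, so no value of that difference could lie within it. The family shares and the number of members per cell moved by less than the SD over cells under all of their alternatives. The correlation without the line on depth was chosen after seeing the data. No paired analysis was possible because the labels give no replicate numbers that pair cells, so pairing was limited to the differences within label dates. Depth limits the members at or near 0: Syt2, Syt10, Cplx3, Sv2b and Doc2b.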
